A study of Mus musculus with 6 samples.

Results

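The collagen, matrix and stromal genes described here are 8 genes of connective tissue, Col1a1, Col1a2, Col3a1, Dcn, Fbn1, Pdgfra, Eln and Thy1, chosen by name. All 8 were found among the 714 genes of the table that the authors deposited. Poly(A) RNA of C57BL/6 macrophages grown from bone marrow was sequenced, with 3 SENP8+/- and 3 wild type libraries, 6 in all. SENP8 encodes a protease that acts on the ubiquitin-like protein NEDD8, and the titles of the SENP8+/- libraries call them KO although the genotype is heterozygous. Both genotypes were grown from flushed tibia and femur marrow for 6 days with GM-CSF at 10 ng/ml, and both received beads carrying CD47, the ligand of the macrophage receptor SIRPα, 24 h before RNA was taken. No library without CD47 beads was analysed here, and no source used here gives the age of the mice, the kind of Senp8 allele or any pooling of animals.

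Fibrillar collagens are made mainly by fibroblasts and other mesenchymal cells, and type I and type III collagen form the bulk of the fibres in many soft tissues. Fibrillin and elastin build elastic fibres, and small proteoglycans such as decorin bind to collagen fibrils. Flushed marrow contains mesenchymal stromal cells beside the blood-forming cells, and macrophages are not a usual source of fibrillar collagen. In a bulk library fewer cells of a type and less RNA per cell cannot be told apart.

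The values are normalised counts, each a read count over the size factor of its library (0.933 to 1.14). The table holds only genes that the authors' test gave an unadjusted p under 0.05 and at least a 2-fold difference, so each gene in it differs between genotypes by selection, and the reads it covers (205957 to 491156 per library) do not give library depth, which remains unknown. Of the 714 listed genes 569 were lower and 145 higher in SENP8+/- cells. The words fell and rose are kept for genes to which the authors' deposited table gives an adjusted p below 0.05. Since no label ties the libraries to separate animals or cultures, p-values reflect only how far these 6 libraries spread, and that spread may be technical. Senp8 itself was not analysed here. Of 15 macrophage markers C1qa, C1qc and Aif1 were listed, all lower in SENP8+/- cells except that C1qc turned sign when libraries were rescaled to equal medians, and Aif1 fell, while Adgre1, Cd68 and Csf1r were not analysed here.

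The 8 genes were all lower on average in SENP8+/- macrophages, but 3 of them fell by the authors' test, namely Thy1, Col3a1 and Eln, and 0 rose. Among all listed genes 33.9% fell (242 of 714) and 7.42% rose (53 of 714), and of the 14694 genes in the authors' correction 1.65% fell. When the libraries were rescaled to equal medians over the listed genes, which raised the median log2 fold change by 0.96, Pdgfra turned to 0.027 and Dcn, Col1a1, Col1a2 and Fbn1 came to between -0.23 and -0.01, while Col3a1 (-0.62), Thy1 (-2.08) and Eln (-2.80) stayed lower. Since most listed genes are lower in SENP8+/- cells, equal medians raise fold changes by construction, and the listed genes cannot give a scaling. Col1a1, Col1a2, Col3a1, Fbn1 and Pdgfra shared a pattern over the libraries, with SENP8+/- replicate 1 the highest of its genotype and wild type replicate 2 the lowest of its own. Dcn, Eln and Thy1 did not show both features. The genotypes did not overlap for 3 of the 8 genes, all 3 lower, against 89.4% of the listed genes in either direction (638 of 714) and 70.6% for those lower (504 of 714). Without wild type replicate 2 they did not overlap for 7 of the 8, Dcn being the exception. The share of listed genes was then 95.2% in either direction (680 of 714) and 76.1% for those separate and lower (543 of 714). Both shares for lower genes are over all 714 genes, including those that were higher.

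**Figure D1:**
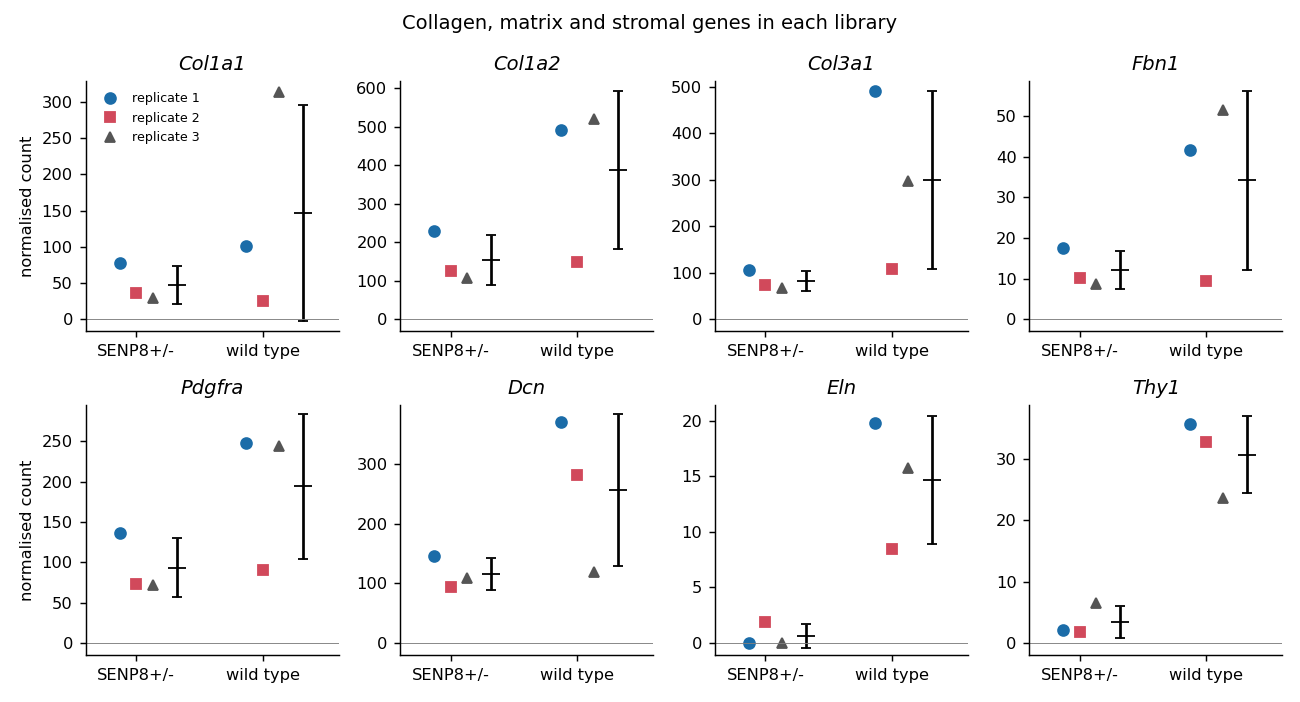
Normalised counts (y axis, linear) of the 8 genes in the 3 SENP8+/- and 3 wild type libraries (x axis), 1 point per library with colour and shape for the replicate number, and the mean ± SD of each genotype as a bar beside the points. In wild type replicate 2 Col1a1, Fbn1, Pdgfra and Col1a2 lie within or below the range of the SENP8+/- libraries, while Thy1 and Eln are separate between the genotypes.

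Col1a1 and Col1a2 encode the α1 and α2 chains of type I collagen, and Col3a1 encodes the only chain of type III collagen. Col1a1 (ENSMUSG00000001506, chromosome 11, 94936224 to 94953042, + strand, GRCm38) had 77.2, 36.3 and 28.9 normalised counts in SENP8+/- replicates 1, 2 and 3, against 101, 25.3 and 313 in wild type replicates 1, 2 and 3. Wild type replicate 2 was the lowest of all 6 libraries and wild type replicate 3 the highest, so the genotypes overlapped. Means were 47.5 ± 26.0 in SENP8+/- cells and 146 ± 149 in wild type cells (SD, n = 3 each), and the gene did not pass the authors' test (adjusted p = 0.390 in the authors' deposited table). By limma its log2 fold change was -1.09 with an SE of 0.71 (adjusted p = 1), and leaving out wild type replicate 3 or wild type replicate 2 gave -0.22 or -2.01 in that order.

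Col1a2 (ENSMUSG00000029661, chromosome 6, 4504814 to 4541544, + strand) had 229, 127 and 107 normalised counts in SENP8+/- replicates 1 to 3, against 490, 149.9 and 521 in wild type replicates 1 to 3. Wild type replicates 1 and 3 lay above every SENP8+/- library, whereas wild type replicate 2 lay below SENP8+/- replicate 1. The mean was 2.51-fold lower in SENP8+/- cells (authors' deposited table, adjusted p = 0.170), and limma gave -1.20 ± 0.47 (SE; adjusted p = 0.551).

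Col3a1 (ENSMUSG00000026043, chromosome 1, 45311538 to 45349706, + strand) had 106, 74.4 and 66.4 normalised counts in SENP8+/- replicates 1 to 3, against 491, 108 and 298 in wild type replicates 1 to 3. The genotypes did not overlap, but the lowest wild type library stood within 2 normalised counts of the highest SENP8+/- library (108 in wild type replicate 2 beside 106). Col3a1 fell 3.63-fold. The authors' deposited table gives it an adjusted p of 0.0149, and limma, which was fitted to log2(value + 1) and corrected over 14694 genes, gave -1.63 ± 0.48 (SE; adjusted p = 0.180) and did not call it. Without wild type replicate 2 the limma estimate was -2.23 ± 0.37 (SE; adjusted p = 0.0230), and limma then called Col3a1, Eln and Thy1, 3 of the 8 genes, against 13.4% of listed genes called lower (96 of 714).

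The start of Col3a1, Col1a2 and Pdgfra is shown because these 3 genes shared the pattern over the libraries and RefSeq (GRCm38.p6) holds their promoters. Of the 8 genes 4 matched that table, the other being Fbn1. Capitals mark matches on either strand to the TATA box letters TATAAA, to the CCAAT box letters and to the Sp1-type GC box letters GGGCGG, with no overlapping matches, searched in the 250 bases before the RefSeq start, and all 3 stretches are on the + strand, 5′ to 3′, and hold no base of an exon annotated in GENCODE M21; that of Col1a2 lies downstream of the annotated gene start, between exons. They are chr1:45311288-45311537 for Col3a1, chr6:4505370-4505492 for Col1a2 and chr5:75152001-75152250 for Pdgfra.
Col3a1: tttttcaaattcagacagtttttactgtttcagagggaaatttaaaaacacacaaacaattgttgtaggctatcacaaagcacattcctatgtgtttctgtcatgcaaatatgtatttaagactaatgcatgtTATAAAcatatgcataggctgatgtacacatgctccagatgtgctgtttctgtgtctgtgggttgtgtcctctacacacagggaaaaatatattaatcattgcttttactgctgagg
Col1a2: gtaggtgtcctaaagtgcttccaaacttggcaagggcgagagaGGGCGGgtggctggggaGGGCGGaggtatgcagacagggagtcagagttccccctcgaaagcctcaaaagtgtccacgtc
Pdgfra: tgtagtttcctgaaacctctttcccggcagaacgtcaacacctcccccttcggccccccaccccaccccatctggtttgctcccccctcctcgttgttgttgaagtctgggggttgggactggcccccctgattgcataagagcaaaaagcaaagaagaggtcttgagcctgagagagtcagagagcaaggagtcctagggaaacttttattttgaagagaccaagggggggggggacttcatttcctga
Col3a1 held TATAAA 117 bases before its start, Col1a2 held GGGCGG 205 and 188 bases before and CCAAT 109 bases before its start (the last beyond the stretch shown), and Pdgfra held none of them. Fbn1, whose window overlaps an annotated exon and is not shown, held GGGCGG 185 bases before its start. Of all 32851 promoters 12.4% held TATAAA, 33.8% CCAAT and 32.7% GGGCGG in the same window. A match describes letters only, and none of the 3 motifs searched was in all 3 windows.

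Fbn1 encodes fibrillin-1, the main protein of the microfibrils on which elastin is laid down, and Eln encodes elastin. Fbn1 (ENSMUSG00000027204, chromosome 2, 125300594 to 125507993, - strand) had 17.5, 10.2 and 8.57 normalised counts in SENP8+/- replicates 1 to 3, against 41.6, 9.50 and 51.5 in wild type replicates 1 to 3. Wild type replicate 2 lay inside the SENP8+/- range, as for Col1a2 and Pdgfra. The mean was 2.83-fold lower in SENP8+/- cells and did not pass (authors' deposited table, adjusted p = 0.384; limma -1.19 ± 0.57, SE, adjusted p = 1).

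Eln (ENSMUSG00000029675, chromosome 5, 134702593 to 134747323, - strand) was near the lower limit of these libraries. SENP8+/- replicates 1, 2 and 3 gave 0, 2 and 0 reads, and wild type replicates 1, 2 and 3 gave 20, 8 and 18. Each wild type library lay above each SENP8+/- library. The SENP8+/- over wild type ratio of reads per size factor was 0.0453, with a 95% exact interval of 0.00532 to 0.173 that covers counting error only. Eln fell in the authors' deposited table (adjusted p = 0.0231). limma gave -3.39 ± 0.55 (SE; adjusted p = 0.00902), a fold change that depends on the 1 added to each value, and leaving out a library lost the call for SENP8+/- replicate 1 (adjusted p = 0.0675), wild type replicate 1 (0.194) or wild type replicate 3 (0.0568).

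Pdgfra encodes the α receptor for platelet-derived growth factors and marks mesenchymal stromal cells. Pdgfra (ENSMUSG00000029231, chromosome 5, 75152292 to 75198215, + strand) had 136, 72.6 and 71.8 normalised counts in SENP8+/- replicates 1 to 3, against 249, 90.8 and 244 in wild type replicates 1 to 3. Wild type replicate 2 again lay below SENP8+/- replicate 1, so the genotypes overlapped. The mean was 2.08-fold lower in SENP8+/- cells and did not pass (authors' deposited table, adjusted p = 0.336; limma -0.98 ± 0.43, SE, adjusted p = 0.915).

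Dcn encodes decorin, a small leucine-rich proteoglycan that binds collagen fibrils. Dcn (ENSMUSG00000019929, chromosome 10, 97479609 to 97518143, + strand) had 146, 94.0 and 108 normalised counts in SENP8+/- replicates 1 to 3, against 370, 281 and 119 in wild type replicates 1 to 3. Here wild type replicate 3, the library with the most Col1a1, was the lowest of the wild type libraries and lay below SENP8+/- replicate 1. The mean was 2.21-fold lower in SENP8+/- cells and did not pass (authors' deposited table, adjusted p = 0.189; limma -1.01 ± 0.41, SE, adjusted p = 0.658).

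Thy1 encodes a GPI-anchored surface protein found on fibroblasts and, in the mouse, on T cells. Thy1 (ENSMUSG00000032011, chromosome 9, 44043384 to 44048579, + strand) had 2.06, 1.86 and 6.43 normalised counts in SENP8+/- replicates 1 to 3, against 35.7, 32.7 and 23.6 in wild type replicates 1 to 3. The groups were far apart, with the lowest wild type library above the highest SENP8+/- library. Thy1 fell 8.89-fold, with means of 3.45 ± 2.58 in SENP8+/- cells and 30.7 ± 6.29 in wild type cells (SD, n = 3 each), and had the lowest adjusted p of the 8 genes in the authors' deposited table (4.67e-04). limma gave -2.96 ± 0.47 (SE; adjusted p = 0.00757), and the call was lost when SENP8+/- replicate 1 (adjusted p = 0.0627), SENP8+/- replicate 2 (0.104) or wild type replicate 1 (0.185) was left out. Thy1 and Eln were the 2 of 8 genes that limma called, against 20.9% of listed genes that it called lower (149 of 714) and 3.78% that it called higher (27 of 714). With the libraries rescaled to equal medians these counts were 35 lower and 126 higher.

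Set against gene length as the authors give it, Dcn had the highest mean of the 8 genes in both genotypes, with 19.9 ± 4.62 normalised counts per kilobase in SENP8+/- cells and 44.0 ± 21.8 in wild type cells (SD, n = 3 each). In SENP8+/- cells Col1a2 (12.4 ± 5.25), Pdgfra (9.32 ± 3.67), Col3a1 (8.38 ± 2.13) and Col1a1 (7.23 ± 3.96) followed, and in this order each level per kilobase differed from the next by less than the SD of either gene. Col1a2 was above the other 3 in each SENP8+/- library. In wild type cells the order was Col1a2 (31.1 ± 16.6), Col3a1 (30.5 ± 19.5), Col1a1 (22.3 ± 22.7) and Pdgfra (19.4 ± 8.95 normalised counts per kilobase), and neighbours in this order again differed by less than the SD of either gene, whereas Col1a2 and Col3a1 differed from Pdgfra by more than the SD of Pdgfra. Thy1 stood at 1.15 ± 0.862 per kilobase in SENP8+/- cells and 10.2 ± 2.10 in wild type cells, Fbn1 at 0.998 ± 0.392 in SENP8+/- cells and 2.82 ± 1.81 in wild type cells, and Eln at 0.0766 ± 0.133 in SENP8+/- cells and 1.81 ± 0.711 in wild type cells. Exons of Col3a1, Fbn1, Pdgfra and Eln overlap exons of other annotated genes, and no source used here says whether strand was kept, so the reads of these 4 genes may include some of their neighbours.

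The median spread of the 8 genes between wild type libraries was above that of the listed genes, although Thy1 lay below it, with an SD of 0.30 on the log2 scale over the wild type libraries. The median SD of log2(value + 1) of the 8 genes was 0.55 over the SENP8+/- libraries and 0.93 over the wild type libraries, against 0.38 and 0.47 over all 714 listed genes. Col1a1 had the widest range in wild type, with the highest library 12.3-fold above the lowest, while Thy1 had the narrowest at 1.51-fold. Wild type replicate 2 was the lowest of its genotype for 6 of the 8 genes, against 35.0% of listed genes (250 of 714), and SENP8+/- replicate 1 was the highest of its genotype for 6 of the 8, against 38.8% (277 of 714). Both held for Col1a1, Col1a2, Col3a1, Fbn1 and Pdgfra, 5 of the 8 genes, against 17.5% of listed genes. SENP8+/- replicate 1 exceeded wild type replicate 2 for 4 of the 8 genes, against 5.27% of the listed genes that were lower in SENP8+/- cells (30 of 569). These counts describe the 6 libraries and carry no test.

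**Figure D2:**
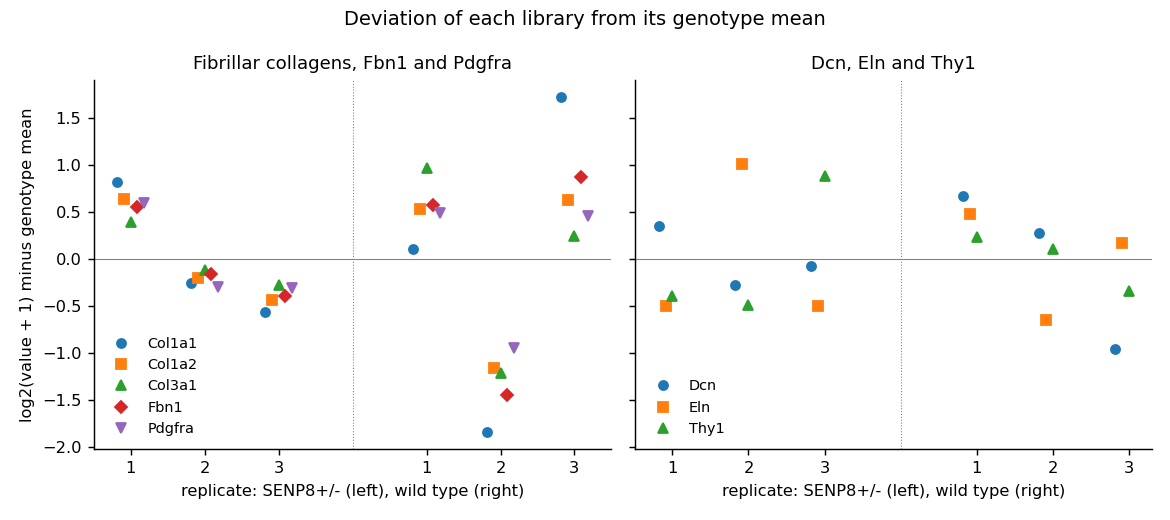
Deviation of log2(value + 1) in each library from the mean of its genotype (y axis, log2 units) by replicate (x axis, SENP8+/- left and wild type right of the dotted line), 1 point per gene and library. Col1a1, Col1a2, Col3a1, Fbn1 and Pdgfra are all above 0 in SENP8+/- replicate 1 and wild type replicates 1 and 3 and all below 0 in the other 3 libraries, whereas Dcn, Eln and Thy1 are not.

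The proportions between the genes were then compared within each library, with the sum of Col1a1, Col1a2 and Col3a1 as the measure of fibrillar collagen. This sum was 412, 237 and 202 normalised counts in SENP8+/- replicates 1 to 3, against 1082, 283 and 1131 in wild type replicates 1 to 3. The wild type replicate 2 sum thus lay between those of the SENP8+/- libraries. Fbn1 varied little as a proportion of it, at 4.25%, 4.31% and 4.23% in SENP8+/- replicates 1 to 3, against 3.84%, 3.36% and 4.56% in wild type replicates 1 to 3. Its SD within genotypes was 0.96 for the log2 level and 0.12 for the log2 ratio to the sum. These proportions rest on 17, 11 and 8 reads of Fbn1 in SENP8+/- replicates 1 to 3. Wild type replicates 1 to 3 had 42, 9 and 59. With so few reads counting error alone can move the ratio, so its small SD does not show a fixed proportion. Pdgfra also varied less as a ratio, with an SD of 0.23 against 0.69 for its level, and stood at 33.0%, 30.6% and 35.4% of the sum in SENP8+/- replicates 1 to 3, against 23.0%, 32.1% and 21.5% in wild type replicates 1 to 3. Of all listed genes 13.9% (99 of 714) had a smaller SD as a ratio to the collagen sum than as a level.

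Dcn did not keep a fixed proportion, and neither did Thy1 over the wild type libraries, where its SD was 1.27 as a log2 ratio and 0.30 as a log2 level. In SENP8+/- cells this could not be judged for Thy1, with 2, 2 and 6 reads in replicates 1 to 3. For Eln it could not be judged there either, with 0, 2 and 0 reads in replicates 1 to 3. Over the wild type libraries the SD of Eln was 0.60 as a log2 ratio and 0.59 as a log2 level. Dcn came to 35.5%, 39.6% and 53.4% of the sum in SENP8+/- replicates 1 to 3, against 34.2%, 99.3% and 10.5% in wild type replicates 1 to 3, and its SD was 1.16 as a ratio, against 0.64 as a level. Thy1 came to 0.500%, 0.784% and 3.17% in SENP8+/- replicates 1 to 3, against 3.29%, 11.6% and 2.08% in wild type replicates 1 to 3. Eln, at 0%, 0.784% and 0% in SENP8+/- replicates 1 to 3, against 1.83%, 2.99% and 1.39% in wild type replicates 1 to 3, was the 1 gene of the 5 whose ratio did not overlap between genotypes. Its log2 ratio was lower by 2.01 in SENP8+/- cells (two-sided exact permutation test, p = 0.1, the smallest that 3 against 3 libraries can give, and 0.333 after Benjamini-Hochberg adjustment over 5 ratios). With 0 reads in SENP8+/- replicates 1 and 3 this difference depends on the 1 added to each value, and with 5 added it was -0.42 (exact permutation p = 0.6). The share of all listed genes whose ratio did not overlap was not computed, so the 1 of 5 has no background to be read against. For Fbn1, Pdgfra, Thy1 and Dcn the same exact permutation test gave p = 0.2, 0.2, 0.3 and 0.7, so no ratio was shown to differ between genotypes and the design could not have reached 0.05.

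**Figure D3:**
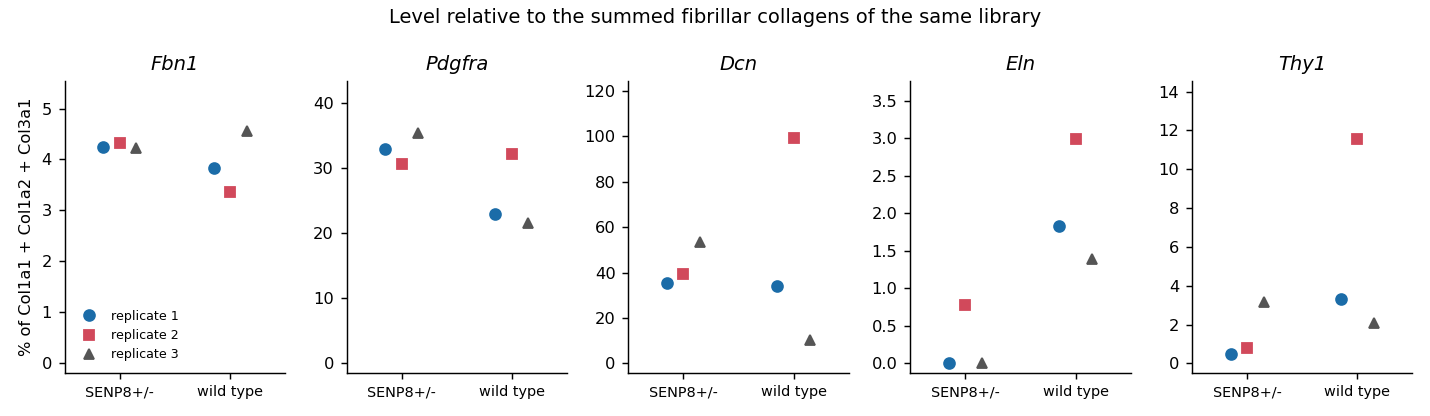
Level of 5 genes as a percentage of the summed Col1a1, Col1a2 and Col3a1 of the same library (y axis, linear, 1 panel per gene) in the SENP8+/- and wild type libraries (x axis), 1 point per library with colour and shape for the replicate number. Fbn1 stays between 3.36% and 4.56% in the 6 libraries, while Dcn ranges between 10.5% and 99.3%.

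The 3 collagen genes did not keep a fixed proportion to each other either. Per kilobase, Col1a1 over Col1a2 was 0.640, 0.543 and 0.511 in SENP8+/- replicates 1 to 3, against 0.390, 0.320 and 1.14 in wild type replicates 1 to 3. Wild type replicate 3 was the only library in which the α1 chain exceeded the α2 chain per kilobase. This rests on the gene lengths that the authors give, 6563 bases for Col1a1 and 12426 for Col1a2, which were not checked against transcripts. Without division by length Col1a1 was below Col1a2 in that library too, at 313 against 521 normalised counts. Col3a1 over Col1a2 was 0.587, 0.745 and 0.785 per kilobase in SENP8+/- replicates 1 to 3, against 1.27, 0.909 and 0.724 in wild type replicates 1 to 3.

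Other collagens and the enzymes that process them were looked up in lists of matrix genes. Of 19 collagen genes 6 were listed, the 3 above and Col6a2, Col18a1 and Col5a3, and the last 3 did not pass the authors' test. Col6a2, a chain of type VI collagen, had 46.3, 27.9 and 24.6 normalised counts in SENP8+/- replicates 1 to 3, against 108, 50.7 and 83.0 in wild type replicates 1 to 3, so that wild type replicate 2 was again the lowest of its genotype. Col18a1, the basement membrane collagen that gives rise to endostatin, averaged 7.36 ± 4.63 in SENP8+/- cells and 30.3 ± 19.7 in wild type cells. Col5a3 went the other way, at 15.5 ± 1.59 in SENP8+/- cells and 4.67 ± 2.77 in wild type cells (adjusted p = 0.280 in the authors' deposited table).

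Of 20 collagen processing genes 3 were listed and 2 fell. Loxl2, a lysyl oxidase that cross-links collagen, fell 16.1-fold, with 16.5, 9.30 and 9.64 normalised counts in SENP8+/- replicates 1 to 3 against 178, 141 and 252 in wild type replicates 1 to 3. Loxl3, of the same family, fell 2.67-fold, to 57.3 ± 14.6 in SENP8+/- cells against 153 ± 19.3 in wild type cells. In both genes wild type replicate 2 lay well above the SENP8+/- libraries, at 141 against at most 16.5 for Loxl2 and at 131 against at most 74.1 for Loxl3. P4ha2, a collagen prolyl hydroxylase, averaged 19.5 ± 7.64 in SENP8+/- cells and 49.4 ± 5.68 in wild type cells and did not pass.

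Beside Fbn1 and Eln, the list of 17 elastic fibre genes held Ltbp1 and Mfap2. Ltbp1, which anchors latent TGF-β in the matrix, fell 4.20-fold, to 8.04 ± 3.03 in SENP8+/- cells against 33.8 ± 13.6 in wild type cells. The microfibril gene Mfap2 had 0 reads in the SENP8+/- libraries and in wild type replicate 2, against 9.90 and 5.24 normalised counts in wild type replicates 1 and 3. Of 31 proteoglycan and glycoprotein genes 8 were listed, 7 lower and 1 higher, and Thbs1, thrombospondin-1, was the 1 that fell, to 590 ± 178 in SENP8+/- cells against 2267 ± 1291 in wild type cells. Lum, encoding the decorin relative lumican, averaged 1.62 ± 1.45 in SENP8+/- cells and 7.89 ± 2.31 in wild type cells, and Ogn, of the same family, 0.653 ± 0.568 in SENP8+/- cells and 6.16 ± 3.24 in wild type cells. Tnc, encoding tenascin-C, was higher in SENP8+/- cells at 13.1 ± 2.03 and 3.56 ± 0.629 in wild type cells without passing. Of 22 genes of matrix proteases and their inhibitors 4 were listed. The inhibitors Serpinb2 and Timp1 rose, to 501 ± 89.7 and 447 ± 131 in SENP8+/- cells against 61.6 ± 13.6 and 174 ± 78.4 in wild type cells. The proteases Adamts1 and Adamts5 did not pass. The median log2 fold change of the 8 genes in the authors' deposited table was -1.57, beside -1.48 over all listed genes. The 8 were all lower, whereas the listed genes include 145 that were higher, and a median over the lower listed genes alone was not computed.

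**Figure D4:**
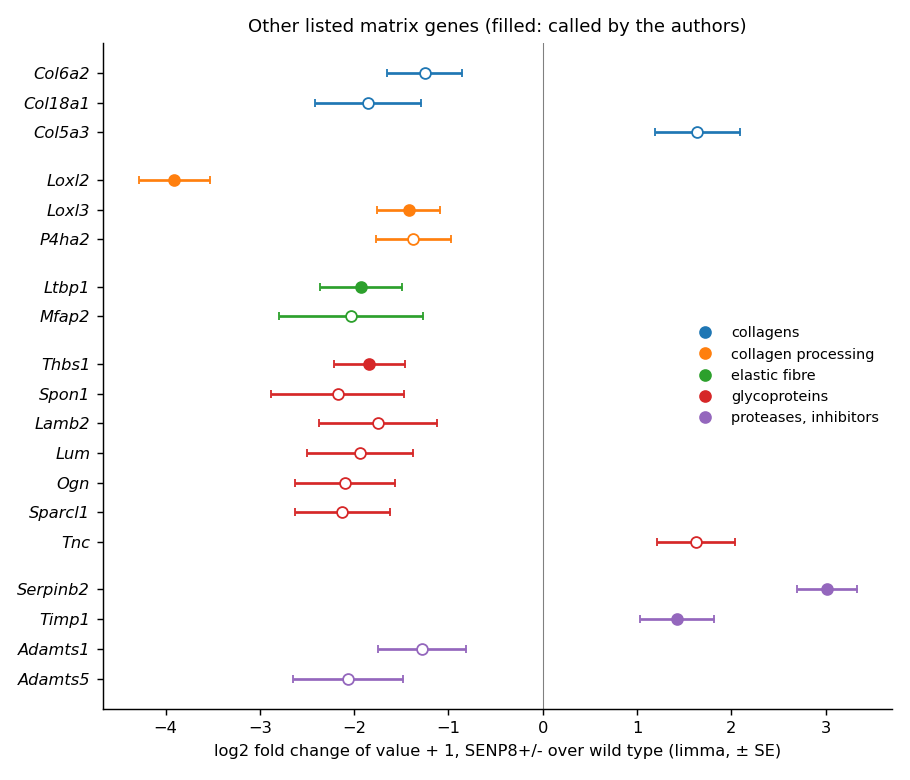
log2 fold change of value + 1, SENP8+/- over wild type, by limma with its SE (x axis) for the other listed matrix genes (y axis), coloured by list and filled where the authors' adjusted p is under 0.05. Loxl2 lies farthest to the left at -3.91 and Serpinb2 farthest to the right at 3.01.

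Genes in marker lists of other cell types also differed between the genotypes, and some of them are not confined to those cells. Of 25 fibroblast and marrow stromal genes 11 were listed and all were lower, Pdgfra turning sign under the rescaling, 8 being the genes described above and the others Lum, Vcam1 and Ly6a. The other 14, among them Pdgfrb, Lepr and Cxcl12, were not analysed here. The list was not chosen independently of the 8 genes. Its summed level was 436 to 755 normalised counts in the SENP8+/- libraries and 996 to 2092 in the wild type libraries, most of it from the 8 genes. Lum, Vcam1 and Ly6a alone summed to 41.2, 43.7 and 38.6 in SENP8+/- replicates 1 to 3, against 293, 290.3 and 138 in wild type replicates 1 to 3. In this sum wild type replicate 3 was the lowest of its genotype and wild type replicate 2 was close to replicate 1, unlike in the collagen sum. Vcam1, an adhesion molecule of stromal cells and also of some macrophages, fell 3.13-fold, to 24.4 ± 2.73 in SENP8+/- cells against 76.5 ± 17.3 in wild type cells. Ly6a, a marker of stem and stromal cells that lymphocytes also carry, fell 10.3-fold, to 15.1 ± 2.47 in SENP8+/- cells against 156 ± 69.4 in wild type cells.

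The T and NK cell list has 24 genes, of which 9 were in the table at lower levels and 6 fell, including Thy1. The 8 others summed to 30.7 to 33.2 normalised counts in the SENP8+/- libraries and 176 to 238 in the wild type libraries, with Gzma and Ncr1 at 0 reads in the SENP8+/- libraries. As for Thy1, wild type replicate 3 had the lowest sum of its genotype. Cd4 (31.5) and Il2rb (66.4) had their highest wild type value in that library, while the other genes of the sum had their lowest there. Of 16 endothelial genes 4 were listed, Pecam1, Eng, Flt1 and Stab2, all lower except that Flt1 turned sign under the rescaling, and the first 2 fell. The 4 summed to 433 to 647 in the SENP8+/- libraries and 820 to 2032 in the wild type libraries, and wild type replicate 2 was the lowest of its genotype. Most of this sum came from Eng, with means of 331 and 966 in SENP8+/- and wild type cells, and Flt1, with 185 and 399. The other 12 endothelial genes, among them Cdh5 and Kdr, were not analysed here. Pecam1 averaged 2.37 ± 3.33 in SENP8+/- cells and 20.0 ± 4.63 in wild type cells. Of 11 smooth muscle and pericyte genes Des alone was listed, at 16.7 ± 5.84 in SENP8+/- cells and 49.7 ± 24.8 in wild type cells, and it did not pass. The lists of 11 osteoblast and cartilage genes and of 9 adipocyte genes had 0 listed genes. What part the share of stromal, endothelial or lymphoid cells has in the values of the 8 genes was not tested.

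The listed genes whose library-to-library pattern lay closest to the collagens were found from the deviations of log2(value + 1) from each genotype's mean over the 6 libraries, as the root-mean-square difference from the mean deviation of Col1a1, Col1a2 and Col3a1. On this measure Fbn1 lay at 0.04 log2 units and Pdgfra at 0.26, whereas Eln lay at 0.79, Dcn at 1.03 and Thy1 at 1.06, beside a median of 0.83 over 323 candidate genes with a mean of at least 26.8. The value of Fbn1 rests on few reads, 36 over the SENP8+/- libraries and 110 over the wild type libraries. The 8 closest candidates were Nacc2, Aatk, Dab2ip, Sorbs3, Usp35, Egr1, Ank1 and Dchs1, at 0.30 to 0.34. Of the reference genes themselves Col1a2 lay at 0.14, Col3a1 at 0.34 and Col1a1 at 0.44. Col3a1 and Col1a1 thus lay no closer to their own mean than these 8 candidates. None of the 8 stands in the matrix or stromal lists, but those lists were searched only in part. The collagen, matrix and stromal genes described here were not candidates. Several other listed matrix genes, Col18a1 and Ltbp1 among them, had a mean below 26.8 and were not candidates either. Nacc2 had 142, 82.8 and 86.8 normalised counts in SENP8+/- replicates 1 to 3, against 203, 102 and 368 in wild type replicates 1 to 3. Sorbs3, which encodes the adhesion adaptor vinexin, fell 8.58-fold, to 85.2 ± 33.2 in SENP8+/- cells against 732 ± 356 in wild type cells. Egr1, an immediate early transcription factor, was higher in SENP8+/- cells, at 240 ± 59.3 against 84.6 ± 67.8 in wild type cells, and did not pass. Egr1 was picked for its closeness among 323 candidates, and what a shared pattern over 6 libraries reflects was not tested.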

How the data were processed

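The 6 libraries, 3 SENP8+/- and 3 wild type, were grouped by their titles. Per the labels' protocols, the libraries were made from poly(A) RNA. The submitters' processing notes name HISAT2 2.0.5 and featureCounts 1.5.0-p3; no source used here gives the genome build, counting settings or test. The authors deposited a signal per library, read counts divided by 1 size factor, with the authors' log2 fold change, p-values and gene length. In each library 100% of these values were whole multiples of 1 step (tolerance 1e-06 of a read), so whole reads were recovered. The listed p-values reach 0.0499 and the smallest absolute log2 fold change is 1.00. From the ratio of adjusted to raw p-values the authors' correction covered 14694 genes. Of the 8 genes, 8 had the same identifier, symbol and position in GENCODE M21, so positions are named as GRCm38. No columns of other series were present (0).

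log2(value + 1) of the 714 listed genes was fitted with limma 3.58.1 (R 4.3.3) using a trended variance, and Benjamini-Hochberg adjustment assumed 14694 tests in which unlisted genes rank last. Such fold changes understate those of low genes. Alternatives were edgeR 4.0.16 and DESeq2 1.42.0 on the recovered reads, pseudocounts of 0.5 and 5, a mean of at least 10, libraries rescaled to equal medians, a replicate block, adjustment over the listed genes, and leaving out each library. The fits were tested on simulated data. Ratios were tested by exact permutation (scipy 1.17.1). Promoters are from RefSeq.

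The 8 genes and the 14 gene lists were chosen with earlier results of these data known. The named genes are the 8, up to 4 listed genes of each list by p, and the 8 non-members with a mean of at least the median of 26.8 closest to the collagens by within-genotype deviations. Values of Lum, Ncr1 and Ctgf were added after they were seen.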

Additional observations from a re-analysis of the deposited data

How the results depend on the processing

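The number of the 8 genes that limma called was 2. It was 1 with a mean of at least 10 required, where Eln dropped out, 0 with libraries rescaled to equal medians, and 6 with adjustment over the listed genes alone, a correction that ignores the selection and gave 701 calls in place of 176. Leaving out 1 library gave 0 to 3 of the 8 genes and 11 to 181 of all listed genes. Rescaling turned Pdgfra to 0.027, and the other 7 kept their sign; the listed genes cannot give a scaling, since most were chosen for being lower in SENP8+/- cells. Over all settings 96 of the fold changes of the 8 genes kept direction and side of the threshold, 8 lost the call, 6 gained it and 1 reversed. On the recovered reads DESeq2 called 235 listed genes and edgeR 180. DESeq2 called Col3a1 (adjusted p = 0.00757), as the authors' table does, and edgeR did not (adjusted p = 0.0683). Deviations of same-numbered libraries correlated at 0.0101, 0.0441 and -0.243 for numbers 1, 2 and 3. Differently numbered libraries gave -0.243 to 0.224. The numbers thus gave no sign of pairing, but correlations over so few libraries cannot exclude it. With the replicate block 174 listed genes and 2 of the 8 were called. The count of genes whose genotypes do not overlap was 3, and 3 to 7 when 1 library was left out, which was added after the data were seen. It was 6 without SENP8+/- replicate 1, against 93.7% of listed genes (669 of 714). Without wild type replicate 2 it was 7, against 95.2% (680 of 714). Leaving out 1 library gave 90.1% to 95.2% of listed genes, beside 89.4% with all libraries. For the ratios to the collagen sum, the difference of Eln was -2.01 with 1 added and -0.42 with 5 added. Of the ratios 1 of 5 did not overlap, and 1 to 3 when 1 library was left out. The same share over all listed genes was not computed. Depth limits Eln, with 2 reads over the SENP8+/- libraries, Thy1, with 10, and Fbn1, with 36.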

Other observations

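Dcn differed from the collagens in having its lowest wild type value in replicate 3, and some listed genes outside the matrix lists had theirs there too. They were chosen after their values were seen. Aif1, a cytoplasmic protein of macrophages, fell, with 199.7, 210 and 242 normalised counts in SENP8+/- replicates 1 to 3, against 916, 1029 and 429.9 in wild type replicates 1 to 3. Des, encoding the muscle filament desmin, had 21.6, 10.2 and 18.2 in SENP8+/- replicates 1 to 3, against 69.3, 58.1 and 21.8 in wild type replicates 1 to 3. Wild type replicate 3 was the lowest of its genotype for 310 of the 714 listed genes (43.4%), so this was common in the table.

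Signals that act on matrix-forming cells were also listed. Of 19 genes of TGF-β and PDGF signalling 5 were listed, and Tgfb2 and Ltbp1 fell. The growth factor gene Tgfb2 fell 3.73-fold, to 8.44 ± 1.11 in SENP8+/- cells against 31.5 ± 7.90 in wild type cells (SD, n = 3 each). Pdgfc, a ligand of the receptor that Pdgfra encodes, averaged 12.9 ± 3.11 in SENP8+/- cells and 37.4 ± 9.87 in wild type cells and did not pass (adjusted p = 0.0568 in the authors' deposited table). Ctgf, a matrix protein gene induced by TGF-β in fibroblasts, averaged 5.76 ± 3.05 in SENP8+/- cells and 0.934 ± 0.880 in wild type cells and did not pass.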
